A study of Mus musculus with 60 samples.

Results

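The genes described here are 45 genes of the cell cycle and of DNA replication, found by symbol in 4 tables that each list 54343 symbols. They were read in 60 bulk RNA-seq libraries of liver and inguinal white adipose tissue, a subcutaneous fat depot that holds a lymph node. By role they comprise 4 regulators of the step from G1 to S phase, 7 genes of the replication helicase and its clamp, 4 genes of deoxynucleotide supply and 30 genes that act in G2 and mitosis.

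All mice were diet-induced obese. In the Glp1r line the 3 groups were Glp1rfl/fl mice given vehicle, Glp1rfl/fl mice given mGIPR-Ab/P1, and Glp1rWnt1-/- mice given vehicle. In the Gipr line they were Giprfl/fl mice given vehicle, Giprfl/fl mice given mGIPR-Ab/P1, and GiprSyn-/- mice given vehicle. The agent mGIPR-Ab/P1 joins an antibody against the receptor of the gut hormone GIP to a peptide that acts on the receptor of GLP-1, and it is called the conjugate below. Each group had 5 libraries per tissue, so that 12 groups fill 4 tables of 15 libraries. The knockout names carry Wnt1 and Syn, names of neural genes, but the labels do not describe the driver constructs, and they give no age, sex, dose or length of treatment. No knockout mice given the conjugate and no lean mice are among these samples, so the comparisons are conjugate against vehicle in floxed mice, and knockout against floxed mice under vehicle.

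The values are FPKM, fragments scaled by transcript length and by the total of the library, as the authors computed them. The tables hold no counts. An approximate depth, read from the smallest steps in the values, was 31.8 to 57.4 M fragments in liver and 29.9 to 64.4 M in fat. The tissue markers matched the labels, with Adipoq between 1011 and 2888 FPKM in fat and Alb between 20666 and 39561 FPKM in liver. Glp1r stood at or below 0.356 FPKM in every library, and Gipr was listed at 0 in 23 of 30 livers and reached 2.16 to 7.46 FPKM in fat, so a deletion in neural cells cannot be checked here. No pair of libraries was identical. The labels call the 5 libraries of a group biological replicates without describing the animals, and the p-values measure the spread between these libraries.

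A cell enters division when cyclin D and cyclin E kinases free the E2F factors, which switch on the genes of DNA synthesis. In S phase the MCM helicase opens the DNA, PCNA holds the polymerases on it, and enzymes such as ribonucleotide reductase and thymidine kinase supply the building blocks. In G2 and mitosis the cyclin B and CDK1 kinase, the Aurora and Polo kinases, the spindle motors and the anaphase-promoting complex separate the copies. Adult hepatocytes and fat cells rarely divide, and in a bulk library of either tissue such transcripts can come from immune, endothelial or progenitor cells. Fewer dividing cells and less RNA per dividing cell cannot be told apart in such libraries.

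Mitotic genes are known for a promoter element called the CHR, bound by the DREAM and MuvB complexes, which often lies close to CCAAT boxes, while S phase genes are known for E2F sites. The RefSeq promoter table (GRCm38.p6, windows from 250 bases before to 50 bases after a start) matched 36 of the 45 genes by symbol. Both strands were searched for the CHR as TTTGAA or TTCGAA, for the E2F site as TTTGGCGC, TTTCCCGC, TTTGCCGC or TTTCGCGC, and for CCAAT. The 9 unmatched genes were Aurkb, Ccna2, Ccnd1, Ccne2, Foxm1, Kif20a, Mcm4, Stmn1 and Tpx2. The windows of 5 genes on which the results turn are shown here, 5′ to 3′ on the strand of the gene, with every match to these motifs in capitals.
Cdk1, chr10:69352863-69353162, minus strand: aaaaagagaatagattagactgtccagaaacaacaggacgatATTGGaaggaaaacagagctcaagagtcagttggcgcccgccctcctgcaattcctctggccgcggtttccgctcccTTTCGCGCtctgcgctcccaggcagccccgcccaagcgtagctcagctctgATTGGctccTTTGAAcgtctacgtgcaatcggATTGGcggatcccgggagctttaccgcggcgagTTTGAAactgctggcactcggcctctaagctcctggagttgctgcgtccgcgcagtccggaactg
Prc1, chr7:80294201-80294500, plus strand, the first of 2 windows: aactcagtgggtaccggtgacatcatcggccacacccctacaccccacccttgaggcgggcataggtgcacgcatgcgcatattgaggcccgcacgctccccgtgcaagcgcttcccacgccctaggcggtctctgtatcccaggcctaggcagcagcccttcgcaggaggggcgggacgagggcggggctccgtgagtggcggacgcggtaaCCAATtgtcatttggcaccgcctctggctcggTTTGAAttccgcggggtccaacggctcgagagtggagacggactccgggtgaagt
Ube2c, chr2:164769679-164769978, plus strand: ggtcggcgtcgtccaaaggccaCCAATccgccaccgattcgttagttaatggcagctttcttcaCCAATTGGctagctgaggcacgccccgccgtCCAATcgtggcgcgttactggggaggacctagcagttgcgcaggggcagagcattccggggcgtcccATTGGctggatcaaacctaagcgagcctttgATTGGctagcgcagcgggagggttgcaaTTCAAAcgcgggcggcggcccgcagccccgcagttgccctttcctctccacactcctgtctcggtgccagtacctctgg
Mcm6, chr1:128359656-128359955, minus strand: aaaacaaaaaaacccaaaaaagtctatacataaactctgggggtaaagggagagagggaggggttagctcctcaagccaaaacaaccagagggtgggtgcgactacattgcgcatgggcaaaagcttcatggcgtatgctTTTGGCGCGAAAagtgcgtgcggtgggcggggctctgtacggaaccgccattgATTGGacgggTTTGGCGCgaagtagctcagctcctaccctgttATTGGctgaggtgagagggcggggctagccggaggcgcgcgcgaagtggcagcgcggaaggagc
Tk1, chr11:117825965-117826264, minus strand: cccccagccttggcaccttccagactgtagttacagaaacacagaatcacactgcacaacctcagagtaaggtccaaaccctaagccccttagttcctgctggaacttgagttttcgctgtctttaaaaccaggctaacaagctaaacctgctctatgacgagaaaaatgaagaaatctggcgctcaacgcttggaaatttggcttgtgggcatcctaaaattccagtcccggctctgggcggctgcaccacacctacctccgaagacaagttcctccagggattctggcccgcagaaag
Cdk1, Prc1 and Ube2c stand for the mitotic genes that fell in fat, Mcm6 for the helicase genes that were not called there, and Tk1 for the gene that rose in liver.

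The mitotic windows held the CHR more often than promoters at large. A CHR match was found in 19 of 24 mitotic genes (79.2%), against 21.7% of the 27025 genes with a window. Cdk1 carried it at -71 to -66 and at -15 to -10 from the start (base 1, with no base 0), Prc1 at -5 to 1, and Ube2c at -29 to -24 on the opposite strand. CCAAT was found in 21 of the 24 (87.5%), in 8 of the 10 S phase genes with a window and in all 6 helicase and clamp genes among them, against 41.1% of all genes. Of those 10 S phase genes 2 held a CHR and 4 an E2F match, and 4 of the 6 helicase and clamp genes held an E2F match, against 2.6% of all genes. In Mcm6 the E2F matches lay at -110 to -103, at -106 to -99 on the opposite strand and at -47 to -40, and the first pair overlaps, as does 1 pair of CCAAT matches in Ube2c. The Tk1 window held none of these letters. A match is a description of the sequence and was not tied to binding in these mice.

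Cell cycle transcripts were more abundant in fat than in liver. In the 10 vehicle libraries of each tissue, 43 of the 45 genes had the higher mean FPKM in fat, with a median ratio of 5.24. The median gene stood at 0.598 FPKM in liver, where 18 genes averaged at least 1 FPKM, and 42 genes did so in fat. The ratio was widest for 2 spindle genes, with Anln at 0.201 FPKM in liver and 2.89 in fat and Tpx2 at 0.255 and 3.13. Other spindle genes lay below the median ratio, with Ect2 at 2.48 and Stmn1 at 4.17. It was narrowest among S phase genes, with Tyms at 2.20 and 2.43. Tk1, the salvage kinase of thymidine, was higher in liver (10.97 against 5.77 FPKM), as was Cks2, a small subunit of cyclin-dependent kinases (15.1 against 6.92 FPKM). The fat means include vehicle library 2 of the Glp1r line, which was high in B cell markers, as described below. The tables were normalised separately, so these levels are a description and were not tested.

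**Figure D1:**
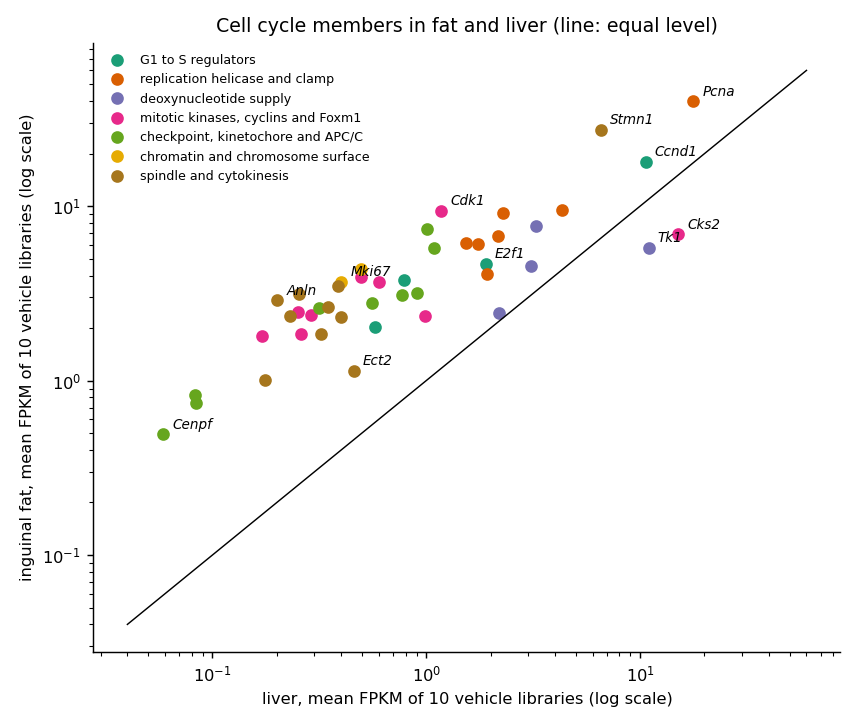
Mean FPKM of each of the 45 genes in 10 liver vehicle libraries (x axis, log scale) and 10 fat vehicle libraries (y axis, log scale), coloured by role. Tk1 and Cks2 lie below the line of equal level and the other 43 genes lie above it.

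B cell markers were high in 6 of the 30 fat libraries, called lymph node-rich here, and the S phase genes were high in the same libraries. A B cell score, the mean log2(FPKM + 1) of 9 B cell markers such as Cd79a and Ms4a1, exceeded 5 in vehicle library 2 (6.29) and knockout libraries 1 (5.56) and 3 (5.497) of the Glp1r line. In the Gipr line it did so in conjugate library 1 (5.89) and knockout libraries 1 (6.07) and 5 (6.05), and vehicle library 2 came next at 4.41. The 9 markers summed to between 2.61 and 916 FPKM over all fat libraries, and none was at 0 throughout a group. The mean log2(FPKM + 1) of the 11 S phase genes was 3.80 in the rich vehicle library of the Glp1r line and 2.29 to 2.55 in its 4 companions. Among Gipr knockout libraries it was 3.36 and 3.65 in the rich pair and 2.74 to 2.91 in the other 3. The 30 mitotic genes averaged 2.32 in rich knockout library 5 and 1.91 in rich knockout library 1, against 1.299 to 1.51 in those 3. Results in fat are therefore given with and without these libraries. The libraries kept are not free of B cell markers. In the Gipr line the markers summed to 111 to 154 FPKM in knockout libraries 2 to 4 and 24.7 to 177 in conjugate libraries 2 to 5. In its vehicle libraries they summed to 224 FPKM in library 2 and 9.64 to 25.2 in the others.

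**Figure D2:**
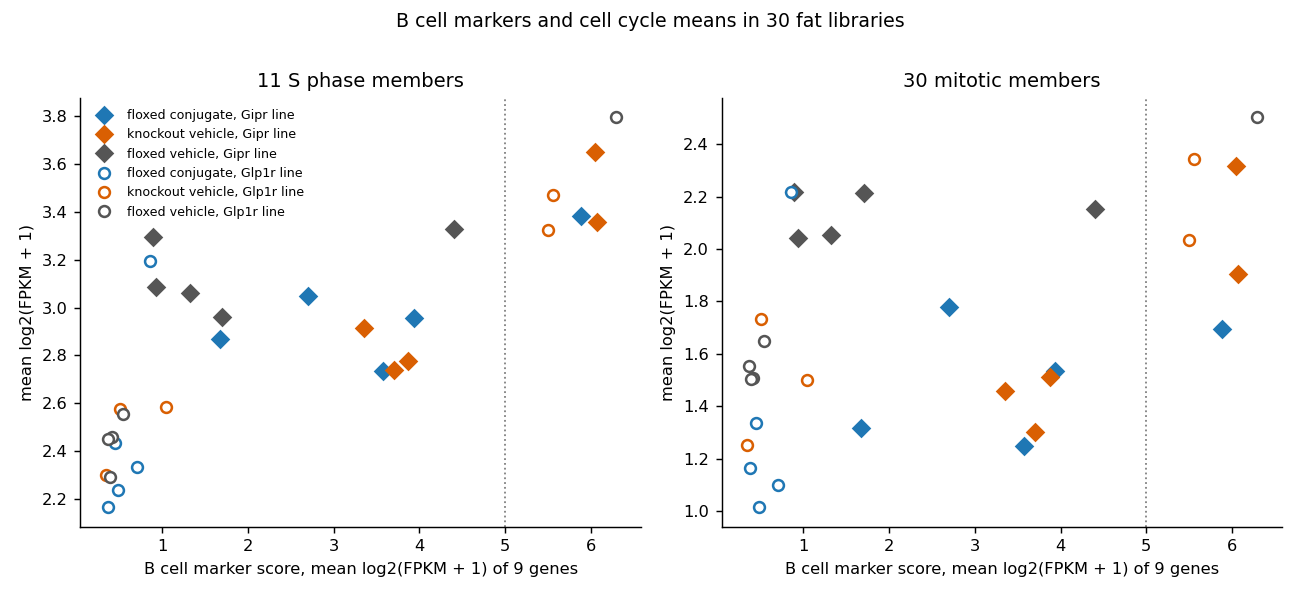
B cell marker score (x axis) against the mean log2(FPKM + 1) of the 11 S phase genes (left) and 30 mitotic genes (right) in 30 fat libraries, with a dotted line at 5. The 6 libraries right of the line have S phase means of 3.32 to 3.80, a range that 1 other library reaches (Gipr vehicle library 2, at 3.33), whereas the mitotic means of the 5 Gipr vehicle libraries (2.04 to 2.22) are high at B cell scores of 0.89 to 4.41.

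In the fat of Gipr floxed mice, the conjugate went with lower levels of mitotic genes and with no call among the genes of the replication helicase. Of 42 genes tested, 11 fell and none rose (limma on log2(FPKM + 1), adjusted p under 0.05), whereas 2.76% of all 13604 genes tested were called lower and 4.26% higher. The median log2 fold change was -0.51 over the 42 genes and 0.11 over all genes. In 25 of the 42, every conjugate library lay below every vehicle library, which held for 4.06% of all genes tested. Bub1, Cenpe and Cenpf were too low to test.

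Among the kinases and cyclins of mitosis 2 of 9 fell. Cdk1, the kinase that drives entry into mitosis, stood at 10.3, 11.4, 12.1, 14.1 and 9.99 FPKM in vehicle libraries 1 to 5 and at 4.10, 6.09, 5.92, 4.18 and 3.07 under the conjugate. The groups were far apart, at 11.6 ± 1.64 and 4.67 ± 1.30 FPKM (SD, n = 5), and the log2 fold change with its SE by limma was -1.17 ± 0.18 (adjusted p = 0.00232), the form used for all changes below. Aurka, the Aurora A kinase of the spindle poles, fell by 0.52 on the log2 scale (SE 0.14, adjusted p = 0.0379). Ccnb1, the B-type cyclin that activates Cdk1, stood at 2.34, 3.06, 3.14, 3.94 and 2.57 FPKM under vehicle and 1.85, 1.36, 1.22, 1.30 and 0.867 under the conjugate. Every conjugate library was the lower, but its fold change of -0.79 ± 0.23 narrowly missed the threshold (adjusted p = 0.0518), as did Ccna2, Ccnb2 and Foxm1 at adjusted p values of 0.0535, 0.0543 and 0.0547.

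The spindle and cytokinesis group held the most calls, 6 of 10. Prc1, which bundles the microtubules of the central spindle, was at 4.19, 4.89, 5.23, 5.44 and 3.55 FPKM under vehicle and 1.76, 2.15, 1.65, 1.73 and 0.647 under the conjugate. These ranges did not overlap and the log2 fold change was -1.15 ± 0.18 (adjusted p = 0.00285). Tpx2, an activator of Aurora A, was at 3.27, 4.58, 4.12, 3.96 and 3.36 FPKM under vehicle and 2.33, 2.35, 1.84, 1.43 and 0.826 under the conjugate, a change of -0.85 ± 0.19 (adjusted p = 0.0194). Kif20a, a kinesin of the cleavage site, went from 2.54, 2.83, 3.36, 2.81 and 2.40 FPKM to 1.53, 1.79, 1.12, 1.21 and 0.868, a change of -0.73 ± 0.17 (adjusted p = 0.0188). Both again separated the groups in every library. Ect2, the exchange factor that turns on the contractile ring, was low throughout, at 1.17, 1.46, 1.36, 1.35 and 1.15 FPKM under vehicle and 0.673, 0.717, 0.577, 0.410 and 0.355 under the conjugate (-0.58 ± 0.13, adjusted p = 0.0179), and it passed the filter on low values through its vehicle and knockout libraries. Stmn1, stathmin, which frees tubulin from microtubules and is abundant outside mitosis too, went from 33.3, 29.2, 29.6, 37.6 and 29.3 FPKM to 23.0, 25.1, 20.3, 18.9 and 17.2 (-0.59 ± 0.14, adjusted p = 0.0212). Anln, the scaffold anillin, completed the set with 3.20, 3.07, 3.74, 3.48 and 3.14 FPKM under vehicle and 1.51, 3.03, 2.16, 2.29 and 2.15 under the conjugate (-0.44 ± 0.11, adjusted p = 0.0312).

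Of the checkpoint and anaphase-promoting complex genes 2 of 6 tested fell. Birc5, survivin, a subunit of the chromosomal passenger complex, averaged 6.83 ± 0.828 FPKM under vehicle and 3.09 ± 0.845 under the conjugate (SD, n = 5), a log2 fold change of -0.96 ± 0.23 (adjusted p = 0.0217). Ube2c, the ubiquitin-conjugating enzyme of the anaphase-promoting complex, averaged 7.45 ± 0.482 and 3.93 ± 1.15 FPKM (-0.81 ± 0.22, adjusted p = 0.0379). The proliferation marker Mki67 was at 3.40, 4.89, 3.95, 4.16 and 4.56 FPKM under vehicle and 2.60, 3.89, 1.60, 1.42 and 1.46 under the conjugate, so that conjugate library 2 reached into the vehicle range, and its change of -0.75 ± 0.28 (adjusted p = 0.123) was not called. Top2a, the topoisomerase that untangles chromosomes, was at 4.38, 6.43, 4.38, 4.90 and 4.57 FPKM under vehicle and 3.91, 3.36, 2.03, 1.30 and 1.64 under the conjugate (-0.83 ± 0.30, adjusted p = 0.101), with no overlap and no call.

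No S phase gene was called. None of the 7 helicase and clamp genes was called, and their log2 changes ran from -0.21 (Mcm5) to 0.17 (Mcm7). Mcm2, a helicase subunit, was at 4.19, 4.45, 3.60, 3.96 and 3.80 FPKM under vehicle and 6.28, 4.05, 4.41, 2.47 and 3.02 under the conjugate, a log2 change of -0.03 ± 0.24 (adjusted p = 0.946). Mcm6, another subunit, was at 9.59, 14.9, 7.84, 12.2 and 9.10 FPKM under vehicle and 13.8, 10.04, 8.74, 9.37 and 8.09 under the conjugate, a change of -0.08 ± 0.21 (adjusted p = 0.834). Pcna, the clamp, was at 44.9, 48.0, 37.0, 52.2 and 44.3 FPKM under vehicle and 49.2, 45.7, 45.03, 42.5 and 42.6 under the conjugate, a change of -0.00 ± 0.10 (adjusted p = 0.992). In each of these 3 the groups overlapped, and the highest conjugate value belonged to lymph node-rich library 1. Of the nucleotide genes, Rrm2, the regulated subunit of ribonucleotide reductase, was at 4.35, 5.09, 4.06, 5.83 and 4.57 FPKM under vehicle and 3.73, 3.51, 2.87, 2.88 and 2.52 under the conjugate, where every library was lower (-0.49 ± 0.21, adjusted p = 0.163). Of the G1 regulators, Ccnd1, cyclin D1, which many tissues express outside division, went from 25.5, 26.0, 21.4, 25.0 and 24.1 FPKM to 18.9, 18.8, 20.0, 16.5 and 17.5 (-0.39 ± 0.10, adjusted p = 0.0288), again with no overlap. Ccne1, Ccne2 and E2f1 were not called.

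Without the 3 lymph node-rich libraries of this table, 26 of the 42 genes fell and none rose, where 2.72% of all genes were called lower and 4.09% higher. Only conjugate and knockout libraries were left out in this fit, and all 5 vehicle libraries were kept. The calls then took in 7 of 9 kinases and cyclins, 6 of 6 checkpoint genes, Mki67 (-0.81 ± 0.19, adjusted p = 0.0304) and Top2a (-0.98 ± 0.17, adjusted p = 0.00895), 8 of 10 spindle genes, Rrm2 and Tk1, and still 0 of 7 helicase and clamp genes. Of the 11 calls 10 were kept, and Anln missed the threshold (-0.35 ± 0.10, adjusted p = 0.0579). Cdk1 and Prc1 had nearly the same size as before, at -1.14 ± 0.18 and -1.18 ± 0.18. The number of calls also moved with single libraries, to 5 without vehicle library 4 or conjugate library 4, 6 without vehicle library 1 or 5, 7 without vehicle library 2 or conjugate library 1, and 2 (Cdk1 and Prc1) without conjugate library 5. The calls of Anln, Aurka and Ube2c were lost in 15, 13 and 11 of 20 alternative fits.

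Other genes of the same processes, from lists drawn up with earlier results in view, were called mostly in mitosis. Of 36 further mitotic genes 27 were tested, and 7 fell and 1 rose. Spc25, a kinetochore subunit, went from 7.98 ± 2.33 to 2.40 ± 1.17 FPKM (SD, n = 5), a log2 change of -1.43 ± 0.22 (adjusted p = 0.00253), and Ckap2, Pbk and Nuf2 changed by -0.93 ± 0.14, -0.86 ± 0.16 and -0.73 ± 0.17. Under the conjugate Ckap2, Pbk, Nek2, Ckap2l and Melk averaged 0.633 to 0.960 FPKM, below the filter level of 1 FPKM. Their vehicle means were 1.36 to 2.47 FPKM. The filter could thus pass these genes through the groups where they were high, which favours calls of a fall among them. Pttg1, securin, went the other way, from 37.0 ± 3.51 to 49.5 ± 5.55 FPKM (0.41 ± 0.11, adjusted p = 0.0420). Of 18 origin and fork genes tested only Cdc45, a partner of the helicase, was called (-0.40 ± 0.11, adjusted p = 0.0414). Ccnd2, cyclin D2, fell (-0.37 ± 0.10, adjusted p = 0.0404) among 11 G1 and E2F genes tested, and the inhibitor gene Cdkn1c rose (0.83 ± 0.19, adjusted p = 0.0209) among 13 inhibitor and p53 target genes tested.

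Markers of other cells differed between the same groups. Endothelial markers, 5 genes such as Pecam1 and Kdr, summed to 361 to 441 FPKM in vehicle libraries and 249 to 360 under the conjugate, without overlap. B cell markers summed to 9.64 to 224 and 24.7 to 685 FPKM, macrophage markers to 746 to 1299 and 926 to 1195, fibroblast and preadipocyte markers to 826 to 1090 and 989 to 1406, and adipocyte markers to 19880 to 22517 and 13384 to 25576. All defining markers of these lists were above 0. Their part in the mitotic result was not tested, apart from the fits without the lymph node-rich libraries and with the B cell score as a term. In the latter 21 genes fell, with no share over all genes given beside it.

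**Figure D3:**
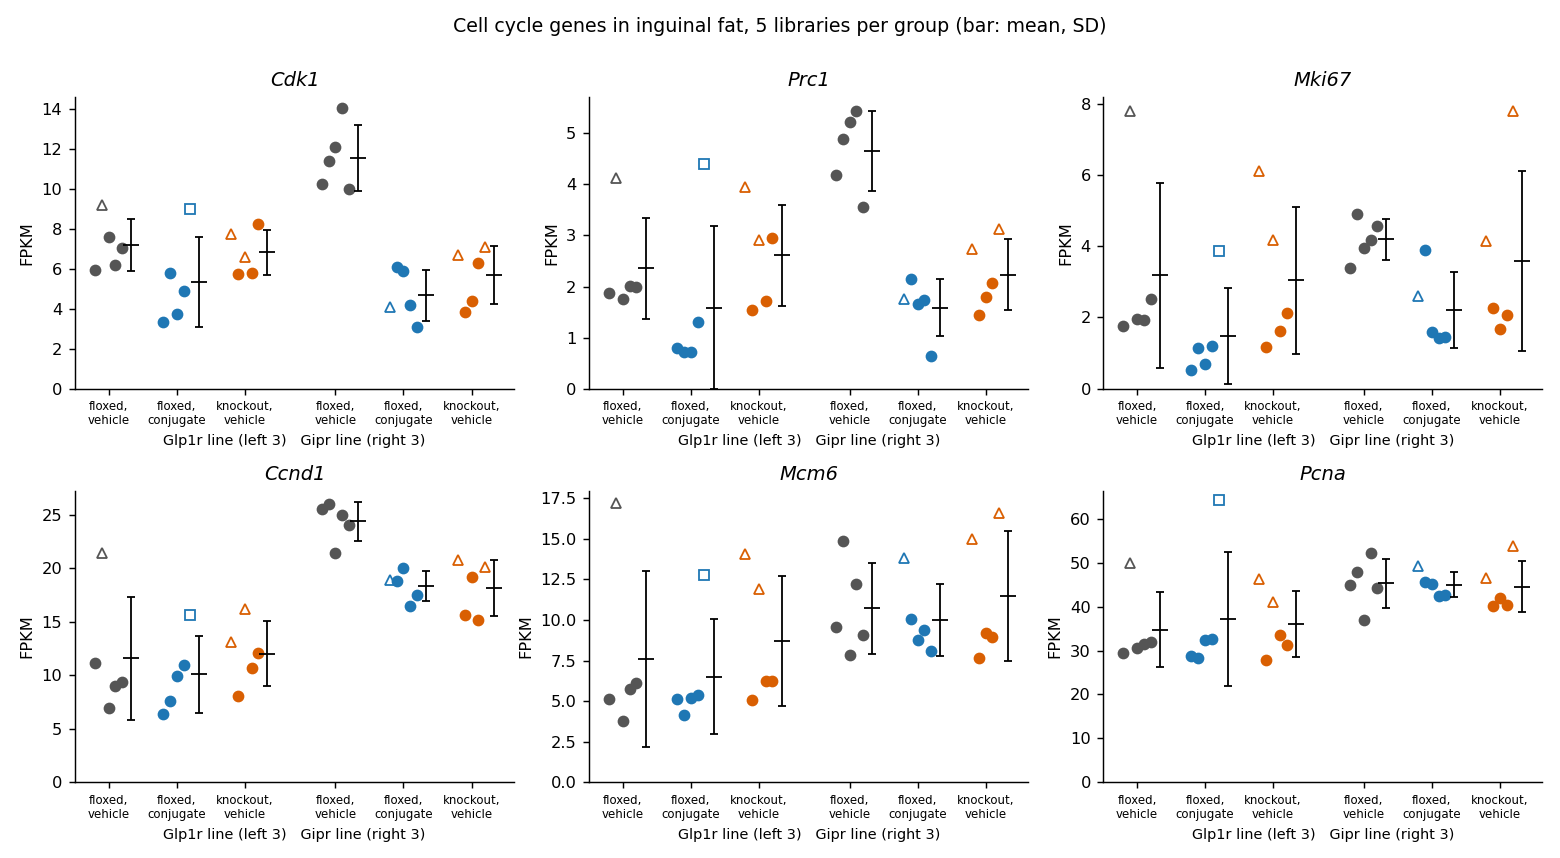
FPKM of 6 genes in fat, 5 libraries per group in replicate order, with mean and SD at the right of each group; triangles are lymph node-rich libraries and the square is macrophage-rich conjugate library 5 of the Glp1r line. In the Gipr line Cdk1 in vehicle libraries (9.99 to 14.1 FPKM) lies above all conjugate and knockout libraries (3.07 to 7.11 FPKM), while Mcm6 and Pcna overlap between the groups.

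GiprSyn-/- fat under vehicle showed falls in the same direction against the floxed vehicle libraries, which both comparisons share. Of 42 genes tested 8 fell and none rose, against 5.67% called lower and 6.61% called higher among all 13604 genes. In 7 of the 42 every knockout library lay below every vehicle library, against 4.73% of all genes tested. The median log2 fold change was -0.35, and 0.09 over all genes, and it was -0.62 over the 42 genes without the lymph node-rich libraries. Lymph node-rich libraries 1 and 5 gave the 2 highest knockout values in every mitotic gene except Foxm1 and Anln.

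Cdk1, the kinase of mitotic entry, again had the smallest p, at 6.71, 3.84, 4.41, 6.29 and 7.11 FPKM in knockout libraries 1 to 5, all below the 5 vehicle libraries, with a log2 fold change of -0.93 ± 0.18 (adjusted p = 0.00582). Anln was at 1.92, 1.85, 1.96, 2.28 and 1.85 FPKM, a tight group below all vehicle libraries (-0.54 ± 0.11, adjusted p = 0.00853). Prc1 was at 2.74, 1.44, 1.79, 2.06 and 3.13 FPKM (-0.82 ± 0.18, adjusted p = 0.0121) and Tpx2 at 2.61, 1.31, 1.48, 1.55 and 3.24 FPKM (-0.71 ± 0.19, adjusted p = 0.0291), both without overlap even though the rich libraries 1 and 5 were highest. Stmn1, the tubulin-binding stathmin, was at 22.3, 15.2, 20.1, 19.8 and 27.1 FPKM, also below all vehicle libraries (-0.60 ± 0.14, adjusted p = 0.0144). The G1 cyclins fell too, Ccnd1 at 20.8, 15.6, 19.2, 15.1 and 20.1 FPKM (-0.41 ± 0.10, adjusted p = 0.0166) and Ccne1, cyclin E1, at 3.19, 1.83, 2.21, 2.51 and 2.78 FPKM (-0.46 ± 0.14, adjusted p = 0.0429), against 3.45, 3.85, 3.87, 4.20 and 3.59 FPKM in vehicle libraries. Birc5 was called (-0.82 ± 0.23, adjusted p = 0.0303) although its rich library 5 reached 7.51 FPKM, inside the vehicle range of 5.67 to 7.70.

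Genes with the widest spread over the knockout libraries were not called. Mki67 was at 4.15, 2.28, 1.68, 2.08 and 7.78 FPKM (-0.32 ± 0.28, adjusted p = 0.455) and Top2a at 5.77, 2.17, 2.03, 2.41 and 7.91 FPKM (-0.37 ± 0.30, adjusted p = 0.404). For both, library 5 stood above every vehicle library and libraries 2, 3 and 4 below all of them. Markers of germinal centre B cells, which divide in lymph nodes, summed to 13.8 FPKM in library 5 and to 3.43 to 5.23 in the other 4. Only 2 of the 5 markers averaged 1 FPKM or more in this group, and their part was not tested. Ccnb1 was at 2.40, 0.820, 0.775, 1.42 and 3.63 FPKM (-0.60 ± 0.23, adjusted p = 0.0962). Rrm2 was at 4.63, 2.03, 2.87, 3.06 and 7.20 FPKM (-0.30 ± 0.21, adjusted p = 0.329). Library 5 was again the highest in both and library 2 or 3 the lowest. Kif20a (0.976 to 2.81 FPKM) and Ect2 (0.449 to 1.29 FPKM) overlapped the vehicle groups in library 5 or 1 and were not called. None of the 7 helicase and clamp genes was called. Mcm2 was at 5.15, 3.22, 3.62, 2.48 and 8.67 FPKM (0.08 ± 0.24). Mcm6 was at 14.97, 7.66, 9.20, 8.96 and 16.6 FPKM (0.06 ± 0.21), and Pcna at 46.5, 40.1, 42.0, 40.3 and 53.7 FPKM (-0.02 ± 0.10). The rich libraries 1 and 5 were the highest in all 3.

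Without lymph node-rich libraries, which leaves 3 knockout libraries, 28 of the 42 genes fell and none rose, against 2.7% called lower and 2.85% called higher among all genes. No vehicle library was left out. Knockout libraries 1 and 5 were the highest of their group in nearly all mitotic genes, so lower knockout levels without them were fixed in advance. The 8 calls were kept, and Mki67 (-0.79 ± 0.21, adjusted p = 0.0491), Top2a (-0.88 ± 0.18, adjusted p = 0.0193), Ccnb1 (-1.002 ± 0.15, adjusted p = 0.00638) and Tk1 (-1.14 ± 0.17, adjusted p = 0.00630) joined them. Helicase and clamp genes were again called in 0 of 7, with a median change of -0.26. A fit with a term for the B cell score called 5 genes. Ccne1 and Birc5 were lost in 13 and 10 of 20 alternative fits. Without knockout library 5 the count was 18, and without vehicle library 1, 3 or 4 or knockout library 2 it was 5. Knockout library 5 and conjugate library 5 also carry library numbers of a higher series. Their estimated depths were 64.4 and 56.8 M fragments, against 29.95 to 39.2 M in the other libraries of Gipr-line fat. The part of depth in the fat calls was not tested. Without the libraries of that series 18 genes fell in the knockout. No share over all genes is given beside these last counts, which show only how the number moved.

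**Figure D4:**
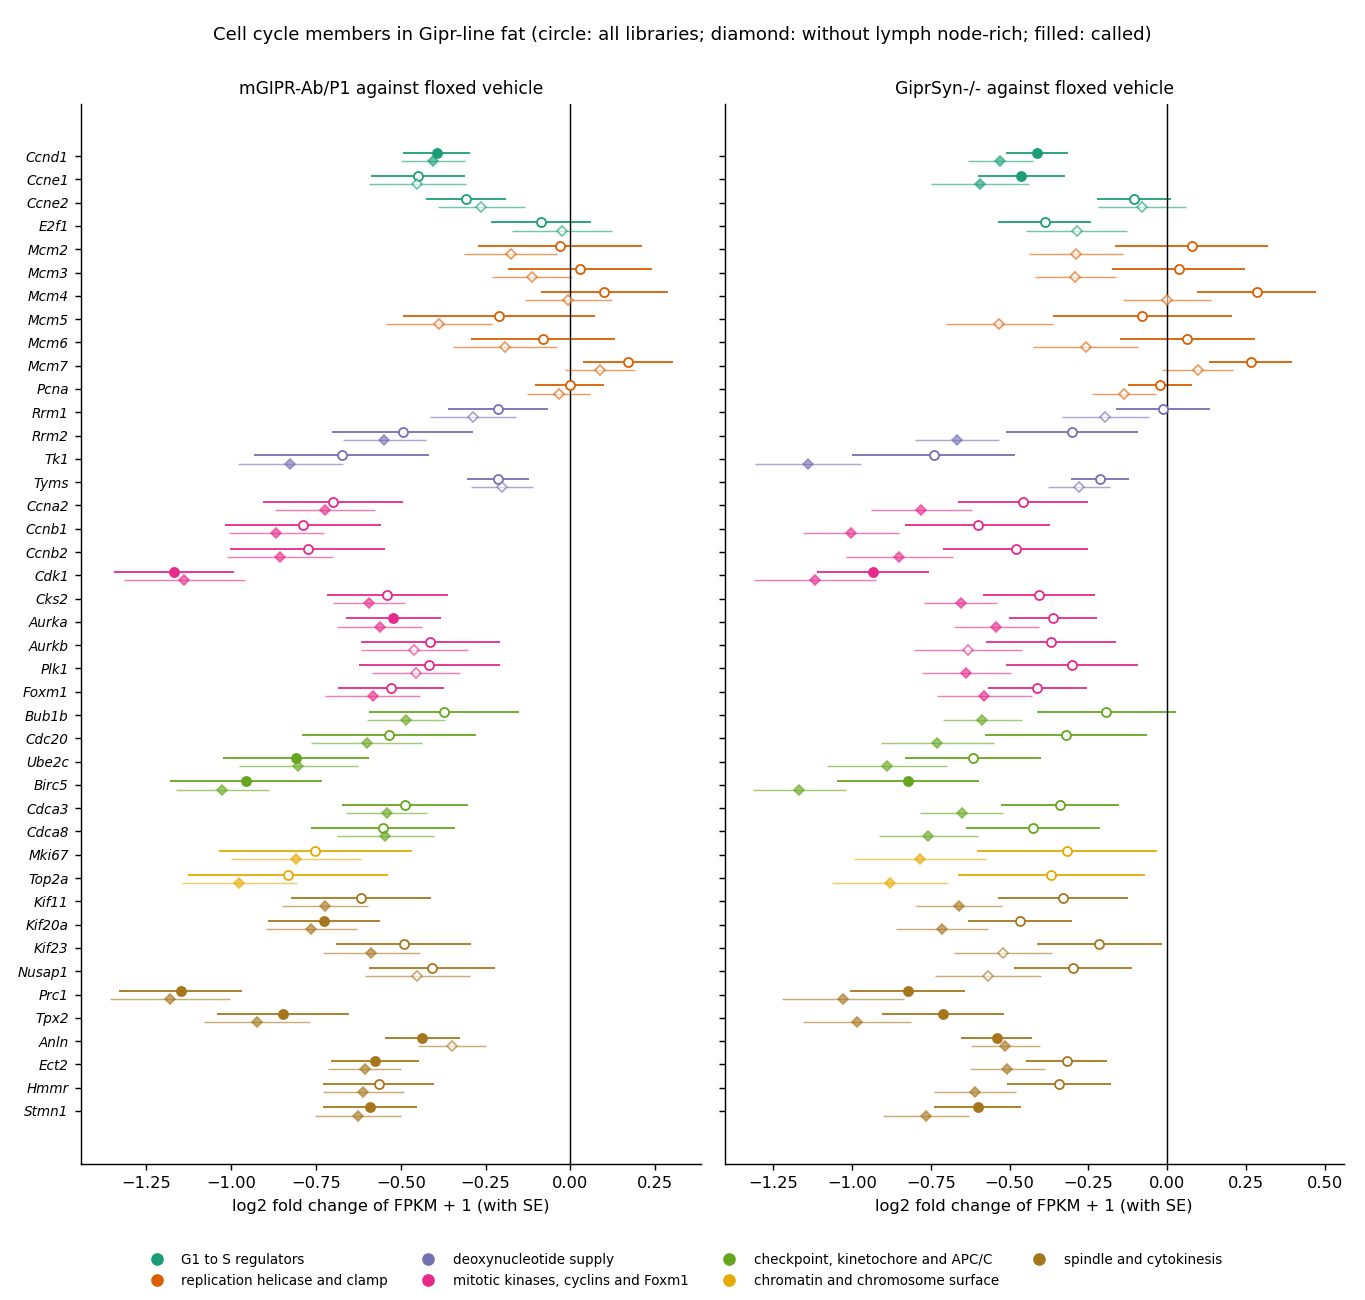
Log2 fold change of FPKM + 1 with SE (x axis) of the 42 genes tested in Gipr-line fat, for the conjugate (left) and the knockout (right) against floxed vehicle; circles use all libraries, diamonds leave out the lymph node-rich ones, and filled symbols were called. Mitotic genes lie left of 0 in both panels and under both sets of libraries, and with all libraries the 7 helicase and clamp genes lie between -0.21 and 0.28.

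Of the further mitotic genes 5 of 27 tested fell in the knockout, among them Spc25 (-1.36 ± 0.22, adjusted p = 0.00338), Gtse1 (-1.20 ± 0.29, adjusted p = 0.0166), Ckap2 (-0.72 ± 0.14, adjusted p = 0.00599) and Pbk (-0.70 ± 0.16, adjusted p = 0.0146). Ccnd2 (-0.41 ± 0.10, adjusted p = 0.0184) and E2f7 (-0.34 ± 0.10, adjusted p = 0.0444) fell among the G1 and E2F genes, and no origin or fork gene was called. Cdkn1a, the p53 target that codes for the kinase inhibitor p21, fell from 42.4 ± 4.70 to 15.7 ± 7.14 FPKM (-1.48 ± 0.34, adjusted p = 0.0139), and the inhibitor gene Cdkn2b fell (-0.47 ± 0.15, adjusted p = 0.0492). Endothelial markers summed to 215 to 318 FPKM in the knockout, below all vehicle libraries. Markers of lipid-associated macrophages, such as Trem2 and Gpnmb, summed to 79.3 to 135 FPKM, against 177 to 329 under vehicle. B cell markers summed to 111 to 763 FPKM and T cell markers to 41.2 to 284, against 9.64 to 224 and 10.1 to 123 under vehicle. Their part in the result was not tested beyond the fits above.

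In Glp1r floxed mice the conjugate gave 1 call in fat, and 2 libraries set how the other genes read. Ccne1 fell from 3.54, 3.99, 3.80, 3.72 and 3.74 FPKM in vehicle libraries 1 to 5 to 2.56, 2.63, 1.90, 2.55 and 2.52 under the conjugate. The groups did not overlap, and the log2 fold change was -0.47 ± 0.09 (adjusted p = 0.0149). That was 1 of 40 genes tested lower and 0 higher, against 1.08% and 2.31% of all 12686 genes. The median change of the 40 genes was -0.40, and 0.05 over all genes, and it was -0.16 without the lymph node-rich libraries. Fitted on the pair of groups alone, limma left Ccne1 just short of the threshold (-0.47 ± 0.09, adjusted p = 0.0535).

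Vehicle library 2 (lymph node-rich) and conjugate library 5 stood above their groups in the mitotic genes. Mki67 was at 1.74, 7.80, 1.94, 1.91 and 2.50 FPKM under vehicle and 0.522, 1.14, 0.686, 1.196 and 3.85 under the conjugate. Top2a was at 2.31, 9.26, 2.14, 2.28 and 2.78 FPKM under vehicle and 0.693, 1.501, 1.09, 1.41 and 5.61 under the conjugate. Apart from those 2 libraries, every conjugate library was below every vehicle library for both. Cdk1 was at 5.93, 9.23, 7.59, 6.20 and 7.06 FPKM under vehicle and 3.32, 5.81, 3.76, 4.91 and 9.01 under the conjugate, with the same order. Ccnb1 was at 1.21, 3.85, 1.15, 0.858 and 1.68 FPKM under vehicle and 0.734, 0.566, 0.638, 1.01 and 3.15 under the conjugate, where the groups overlapped in conjugate library 4 too. Conjugate library 5 held macrophage markers summing to 2887 FPKM, against a group median of 536, and lipid-associated macrophage markers summing to 1832 FPKM, against 210. Of the 5 germinal centre B cell markers only 1 averaged 1 FPKM or more in this group. Their sum was 8.44 FPKM in library 5 and 1.41 to 2.26 in the other 4 conjugate libraries. The B cell score of library 5 was 0.86, far below 5, and the part of these markers in its values was not tested.

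The S phase genes showed the same pair of high libraries. Mcm2 was at 2.73, 10.9, 1.98, 2.45 and 2.93 FPKM under vehicle and 1.70, 1.93, 1.98, 2.25 and 4.50 under the conjugate (-0.42 ± 0.38). Mcm6 was at 5.13, 17.2, 3.78, 5.74 and 6.13 FPKM under vehicle and 5.11, 4.13, 5.19, 5.37 and 12.8 under the conjugate (-0.12 ± 0.37). Pcna was at 29.5, 49.9, 30.7, 31.5 and 31.9 FPKM under vehicle and 28.7, 28.3, 32.4, 32.5 and 64.3 under the conjugate (0.06 ± 0.22). The groups overlapped in all 3 with or without the pair of high libraries, and none was called. Rrm2 was at 2.97, 10.4, 2.17, 3.13 and 2.61 FPKM under vehicle and 1.37, 1.43, 1.24, 2.44 and 4.68 under the conjugate, not called either (-0.61 ± 0.39). Ccnd1 was at 11.2, 21.5, 6.93, 8.97 and 9.40 FPKM under vehicle and 6.39, 7.60, 9.96, 10.9 and 15.6 under the conjugate, with wide overlap (-0.14 ± 0.27).

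Leaving out the lymph node-rich libraries alone gave Ccne1 (-0.46 ± 0.08, adjusted p = 0.00667) as lower and Mcm7, a helicase subunit, as higher (0.35 ± 0.08, adjusted p = 0.0185), against 5.74% called lower and 14.7% called higher among all genes. Leaving out conjugate library 5 alone gave 4 genes as lower, with no share over all genes given beside it. That library stood above its group in the mitotic genes. Lower conjugate levels of them without it were thus fixed in advance, here and in the next fit. Leaving out both kinds, a fit chosen after the data were seen, gave 18 of 40 genes as lower and 1, Mcm7, as higher. Among all genes 7.84% were then called lower and 20.2% higher. The 18 included Mki67 (-0.69 ± 0.15, adjusted p = 0.00859), Prc1 (-0.64 ± 0.14, adjusted p = 0.0101), Ube2c (-0.56 ± 0.10, adjusted p = 0.00425) and Cdk1 (-0.51 ± 0.15, adjusted p = 0.0283), with 5 of 9 kinases and cyclins, 6 of 8 spindle genes and 0 of 7 helicase and clamp genes lower. Among the pathway genes, with all libraries, Spc25 (-0.94 ± 0.20, adjusted p = 0.0231) and Ccnd2 (-0.41 ± 0.09, adjusted p = 0.0302) fell and Cdkn1c rose (0.75 ± 0.18, adjusted p = 0.0366).

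Glp1rWnt1-/- fat gave no call against floxed fat under vehicle. None of the 40 genes was called by limma, 2 of them having an unadjusted p under 0.05, and 0% of all 12686 genes were called. The 3 genes with the smallest p were E2f1, Ccne1 and Ccne2. E2f1, the S phase transcription factor, was at 2.47, 2.42, 2.43, 2.57 and 2.80 FPKM in knockout libraries 1 to 5 and 4.52, 3.73, 3.78, 3.996 and 3.98 in vehicle libraries, all knockout libraries being lower (-0.50 ± 0.14, adjusted p = 0.983). Ccne1 was at 3.53, 2.95, 2.73, 2.65 and 3.34 FPKM, likewise below all vehicle libraries (-0.24 ± 0.09, adjusted p = 0.983), and Ccne2 changed by -0.11 ± 0.08. Knockout libraries 1 and 3, both lymph node-rich, were the highest for Mki67 (6.11, 1.18, 4.16, 1.62 and 2.12 FPKM), Top2a (7.61, 1.36, 5.33, 2.13 and 2.69), Mcm2 (7.39, 2.46, 7.12, 2.69 and 2.74), Mcm6 (14.1, 5.06, 11.9, 6.26 and 6.23) and Pcna (46.2, 27.8, 41.0, 33.6 and 31.3). Cdk1 was at 7.73, 5.77, 6.62, 5.81 and 8.25 FPKM and Ccnb1 at 3.05, 0.629, 2.39, 1.202 and 1.47. Rrm2 was at 7.57, 1.63, 5.57, 2.63 and 2.66 FPKM and Ccnd1 at 13.1, 8.10, 16.2, 10.7 and 12.1. All 4 overlapped the vehicle libraries. Without the rich libraries again no gene was called, and the median change was -0.03.

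The fall under the conjugate was not shown to differ between the lines in fat. In a limma fit over the 30 fat libraries, none of 42 genes had a called difference of the conjugate effect (2 with an unadjusted p under 0.05), and 0% of all 13749 genes were called. The smallest p belonged to Anln, with a difference of -0.66 ± 0.18, Cdk1 (-0.75 ± 0.27) and Prc1 (-0.65 ± 0.37), each in the direction of a deeper fall in the Gipr line and each at adjusted p = 0.900. Without lymph node-rich libraries the count was again 0.

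Liver held most cell cycle transcripts at low levels. The calls there were of G1 and S phase genes, which were also most of the genes that could be tested. In Glp1r floxed mice given the conjugate, 16 of the 45 genes could be tested, of which 3 fell and 1 rose, against 4.69% called lower and 5.68% called higher among all 10858 genes. E2f1 was at 1.22, 2.27, 1.84, 1.65 and 1.70 FPKM under vehicle and 0.732, 0.983, 0.823, 1.06 and 0.976 under the conjugate (-0.51 ± 0.09, adjusted p = 0.00656). Mcm2 was at 0.927, 2.36, 1.64, 1.37 and 1.51 FPKM under vehicle and 0.810, 0.684, 0.815, 0.754 and 0.756 under the conjugate (-0.51 ± 0.12, adjusted p = 0.0147). Ccnd1 was at 7.01, 9.51, 7.86, 5.51 and 6.002 FPKM under vehicle and 3.43, 4.30, 4.48, 3.62 and 5.22 under the conjugate (-0.64 ± 0.18, adjusted p = 0.0399). In all 3 every conjugate library was below every vehicle library, and the share of all genes for which this held in liver is not given. Mcm2 passed the filter on low values through its vehicle and knockout libraries alone, and E2f1 through these and 1 conjugate library. Without the filter their adjusted p values were 0.0416 and 0.0194. The call of Ccnd1 was lost in 10 of 18 alternative fits. Tk1 went the other way, from 9.92, 7.38, 8.15, 9.04 and 7.18 FPKM to 25.3, 11.5, 20.7, 14.2 and 16.6, every conjugate library being higher (0.96 ± 0.18, adjusted p = 0.00657).

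The other S phase genes of this comparison were not called, with Mcm6 at 0.926, 2.76, 1.37, 1.31 and 1.85 FPKM under vehicle and 0.700, 0.950, 1.29, 0.850 and 1.09 under the conjugate (-0.39 ± 0.15, adjusted p = 0.103). Pcna was at 14.7, 17.6, 16.2, 16.6 and 17.4 FPKM under vehicle and 14.4, 17.0, 18.8, 14.4 and 13.9 under the conjugate. Rrm2 was at 4.41, 3.69, 3.59, 3.99 and 3.41 FPKM under vehicle and 3.55, 2.66, 2.76, 3.66 and 3.67 under the conjugate. All 3 genes overlapped between the groups. Of the 30 mitotic genes 4 could be tested (Cks2, Ube2c, Birc5 and Stmn1) and none was called, while the other 26, among them Mki67, Top2a, Cdk1 and Ccnb1, were too low to test. Mki67 was at 0.171 to 0.549 FPKM under vehicle and 0.105 to 0.195 under the conjugate, and Cdk1 at 0.490 to 1.45 under vehicle and 0.491 to 0.823 under the conjugate. From the pathway lists Cdkn1a (-1.91 ± 0.48, adjusted p = 0.0233), Btg2 (-0.76 ± 0.20, adjusted p = 0.0285), Ccng1 (-0.43 ± 0.08, adjusted p = 0.00881), E2f3 (-0.28 ± 0.06, adjusted p = 0.0149) and Mad2l1 (-0.31 ± 0.09, adjusted p = 0.0412) fell. The first 3 are known p53 targets.

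Depth and the sums of some marker lists moved with this comparison. Adipocyte markers summed to 12.4 to 44.5 FPKM in conjugate and 49.2 to 80.7 in vehicle livers, with Lep at 0 in both, and erythroid markers to 319 to 607 and 672 to 974. Epithelial markers summed to 126 to 183 FPKM under the conjugate and 211 to 315 under vehicle, with Krt5 and Krt14 at 0. In both groups only 2 of 6 epithelial, 3 of 6 adipocyte and 3 of 5 erythroid markers averaged 1 FPKM or more. The sums thus rest on few genes and do not count cells. None of the 3 lists overlapped between the groups, and their part in the result was not tested. The estimate was 31.8 to 35.5 M fragments in the conjugate libraries and 47.7 to 54.8 M in the vehicle libraries, without overlap, so that depth and treatment cannot be told apart here. With the depth as a term, a fit added after the data were seen, limma called 0 of the 16 genes and 0 genes in all. Because depth separated the groups, that fit determined the changes poorly and decides nothing about depth. With wider errors they came to -0.56 ± 0.29 for E2f1, -0.64 ± 0.37 for Mcm2, -1.32 ± 0.56 for Ccnd1 and 1.27 ± 0.56 for Tk1. Tk1 shares 83 exon bases with Afmid, a gene on the opposite strand whose start lies 168 bases away in the GENCODE vM21 annotation (GRCm38). Afmid was at 19.1 to 34.3 FPKM in these vehicle libraries and 35.8 to 58.7 under the conjugate (log2 change 0.65 ± 0.18, adjusted p = 0.0329). The kit marked strand, but no source used here says whether the counting used it, and the part of Afmid in the Tk1 values was not tested.

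Glp1rWnt1-/- liver gave no call by limma among 16 genes (1 with an unadjusted p under 0.05), and 0% of all 10858 genes were called. E2f1, Ccnd1 and Rrm1, a subunit of ribonucleotide reductase, had the smallest p. E2f1 was at 0.988, 1.07, 1.15, 1.36 and 1.31 FPKM, overlapping the vehicle libraries through vehicle library 1 (-0.32 ± 0.09, adjusted p = 0.236). Ccnd1 was at 3.05, 4.83, 4.995, 6.42 and 8.25 FPKM (-0.36 ± 0.18, adjusted p = 0.555), and Rrm1 changed by -0.16 ± 0.08 (adjusted p = 0.556). Tk1 was at 10.3, 12.6, 8.96, 7.497 and 8.07 FPKM and Mcm2 at 0.868, 1.13, 1.22, 1.32 and 1.51. Mcm6 was at 0.777, 1.32, 1.17, 1.33 and 1.37 FPKM, Pcna at 14.3, 15.97, 17.1, 15.4 and 16.7 and Rrm2 at 4.998, 3.31, 2.95, 2.86 and 3.18. All 5 overlapped the vehicle libraries.

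In livers of the Gipr line E2f1 was called lower in both comparisons, which share the vehicle libraries. It was at 1.67, 2.05, 2.72, 1.91 and 1.88 FPKM under vehicle, 0.783, 1.15, 0.8002, 1.02 and 1.33 under the conjugate and 1.07, 1.14, 1.31, 1.05 and 1.94 in the knockout. The conjugate libraries were all lower (-0.59 ± 0.12, adjusted p = 0.0139), while knockout library 5 reached into the vehicle range (-0.41 ± 0.12, adjusted p = 0.0393). E2f1 was the 1 call among 18 genes under the conjugate, against 3.17% called lower and 1.17% called higher among all 11201 genes. In the knockout 1 of 18 fell and 1 rose, against 8.92% and 1.44%. The gene that rose was Tk1, at 13.4, 17.3, 10.2, 12.5 and 14.6 FPKM under vehicle and 18.1, 20.9, 26.6, 22.8 and 33.5 in the knockout, with no overlap (0.79 ± 0.19, adjusted p = 0.0151). Under the conjugate Tk1 was at 13.6, 26.6, 17.0, 23.8 and 21.2 FPKM and was not called (0.54 ± 0.19, adjusted p = 0.124). Afmid changed by 0.23 ± 0.17 under the conjugate and 0.22 ± 0.17 in the knockout, neither called.

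**Figure D5:**
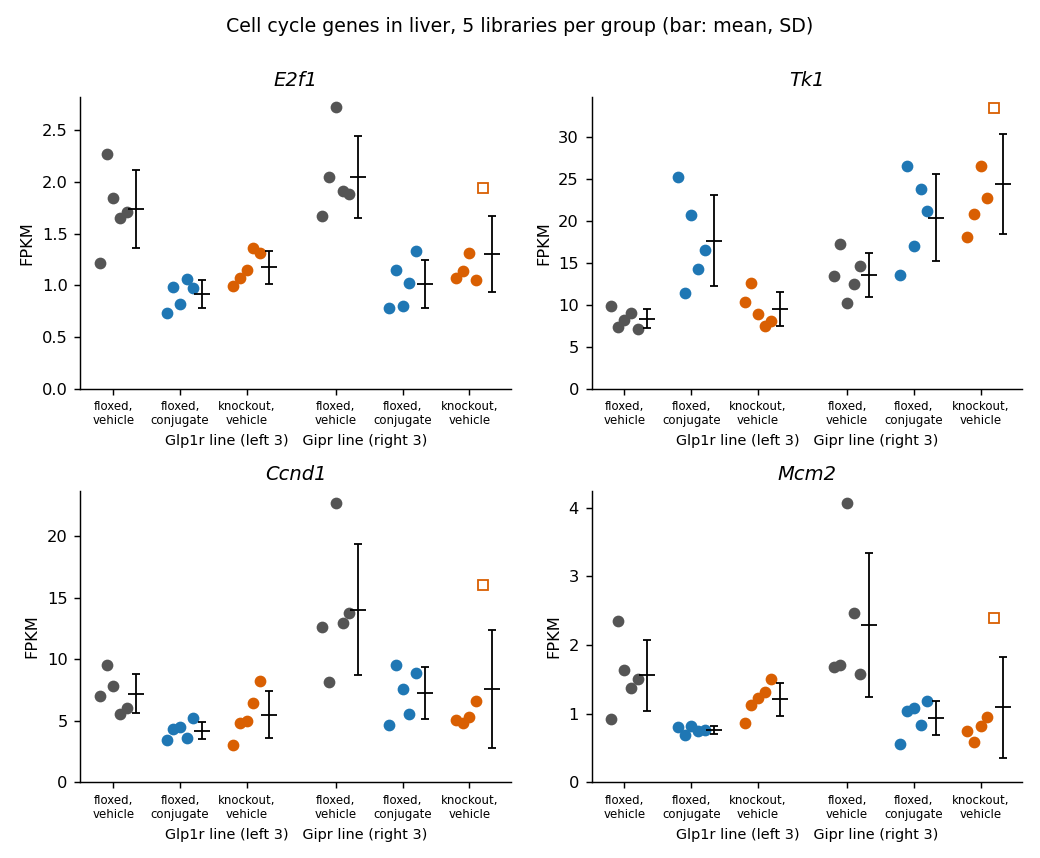
FPKM of 4 genes in liver, 5 libraries per group in replicate order, with mean and SD at the right of each group; the square is knockout library 5 of the Gipr line. E2f1 in conjugate libraries lies below the vehicle libraries in both lines, Tk1 in the Glp1r line lies above them, and the square is the highest knockout value in all 4 genes.

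In these livers 1 knockout library and 1 vehicle library stood above their groups in the replication genes. Mcm2 was at 1.67, 1.70, 4.06, 2.47 and 1.58 FPKM under vehicle, 0.554, 1.04, 1.08, 0.831 and 1.19 under the conjugate (-0.73 ± 0.21, adjusted p = 0.0677) and 0.741, 0.583, 0.820, 0.952 and 2.39 in the knockout (-0.66 ± 0.21, adjusted p = 0.0641). Ccnd1 was at 12.6, 8.17, 22.7, 12.9 and 13.7 FPKM under vehicle, 4.64, 9.504, 7.57, 5.58 and 8.90 under the conjugate (-0.84 ± 0.30, adjusted p = 0.125) and 5.09, 4.82, 5.28, 6.64 and 16.01 in the knockout (-0.88 ± 0.30, adjusted p = 0.0787). Knockout library 5 and vehicle library 3 were the highest of their groups in both, as in the next 3 genes. Mcm6 was at 2.04, 1.76, 5.89, 3.06 and 1.92 FPKM under vehicle, 1.61, 1.41, 2.45, 1.46 and 1.46 under the conjugate and 0.963, 1.21, 1.25, 1.13 and 4.68 in the knockout. Pcna was at 16.6, 18.5, 22.8, 19.3 and 17.4 FPKM under vehicle, 15.4, 18.6, 18.8, 17.3 and 17.5 under the conjugate and 13.8, 15.3, 16.4, 14.9 and 22.6 in the knockout. Rrm2 was at 2.04, 1.83, 4.02, 2.25 and 1.71 FPKM under vehicle, 1.70, 1.58, 2.08, 1.77 and 1.92 under the conjugate and 1.49, 1.62, 1.82, 1.69 and 3.39 in the knockout. Of the mitotic genes Mki67, Top2a and Ccnb1 were too low to test, and Mki67, Top2a and Cdk1 had the same high pair. Mki67 was at 0.263, 0.317, 0.830, 0.421 and 0.308 FPKM under vehicle, 0.317, 0.355, 0.436, 0.1202 and 0.179 under the conjugate and 0.209, 0.184, 0.188, 0.210 and 1.86 in the knockout. Top2a was at 0.518, 0.325, 1.30, 0.601 and 0.380 FPKM under vehicle, 0.409, 0.337, 0.505, 0.199 and 0.224 under the conjugate and 0.168, 0.224, 0.262, 0.239 and 2.59 in the knockout. Cdk1 was at 0.914, 0.654, 2.67, 1.53 and 1.05 FPKM under vehicle, 0.974, 0.516, 1.37, 0.779 and 0.628 under the conjugate and 0.630, 0.579, 0.630, 0.770 and 2.77 in the knockout, and Ccnb1 ranged over 0.181 to 0.534, 0.0852 to 0.295 and 0.0742 to 1.04 FPKM in the same order. In knockout library 5 T cell markers summed to 22.2 FPKM, against a group median of 2.76, and macrophage markers to 508, against 119.

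Knockout library 5 was singled out for its high values in these genes, so deeper falls without it were fixed in advance. Without it, and with the high vehicle library 3 kept, the knockout gave 1 gene higher and 9 lower of 18, against 1.52% and 13% of all genes. The 9 were Ccnd1 (-1.16 ± 0.23, adjusted p = 0.00596), E2f1, Mcm2 (-0.85 ± 0.18, adjusted p = 0.00671), Mcm3, Mcm4, Mcm5, Mcm6 (-0.79 ± 0.22, adjusted p = 0.0281), Pcna (-0.30 ± 0.09, adjusted p = 0.0447) and Rrm1. The same fit was added for the conjugate after the data were seen. It gave Ccnd1, E2f1, Mcm2 and Mcm5 as lower, against 3.68% called lower and 1.24% called higher in all. Without any 1 of vehicle libraries 3, 4 and 5 or knockout libraries 1 to 4, E2f1 missed the threshold in the knockout and 1 gene was called. Without conjugate library 1, 2 genes were called under the conjugate. Pancreatic acinar markers, 5 genes such as Prss2 and Cpa1, summed to 13.3 to 2399 FPKM in vehicle, 43.0 to 4258 in conjugate and 37.3 to 1727 in knockout livers of this line. Adipocyte markers summed to 49.4 to 126 FPKM in vehicle, 15.1 to 48.9 in conjugate and 17.1 to 22.9 in knockout livers. In the knockout the sums of 3 further lists lay below all vehicle libraries. Lipid-associated macrophage markers were at 26.7 to 31.3 FPKM against 38.4 to 104, erythroid markers at 460 to 602 against 676 to 1162, and epithelial markers at 115 to 158 against 164 to 288. Only 2 of 6 lipid-associated macrophage markers averaged 1 FPKM or more there, and 5 of 6 under vehicle. For erythroid, epithelial and adipocyte markers it was 3 of 5, 3 of 6 and 3 of 6 in the knockout. These sums rest on few genes and do not count cells. The part of these markers in the calls was not tested.

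From the pathway lists Ccng1 fell under the conjugate (-0.55 ± 0.13, adjusted p = 0.0330) and in the knockout (-0.58 ± 0.13, adjusted p = 0.0119), as did Cdk6, a G1 kinase, by -0.53 ± 0.14 (adjusted p = 0.0440) and -0.53 ± 0.14 (adjusted p = 0.0227). In the knockout Cdkn1a (-1.04 ± 0.28, adjusted p = 0.0277), Cdkn2c (-0.71 ± 0.20, adjusted p = 0.0339) and Spc25 (-0.58 ± 0.18, adjusted p = 0.0479) fell too. Cdkn1a averaged 0.714 FPKM in the knockout and 2.52 in vehicle livers, so the filter could pass it through groups other than the knockout. Mcm10, a fork protein, was listed at 18.7 ± 1.55 FPKM in vehicle and 28.5 ± 5.06 in knockout livers, a rise of 0.57 ± 0.11 (adjusted p = 0.00405), and stood above the helicase subunits Mcm2 to Mcm7 in FPKM. The conjugate effect was not shown to differ between the lines in liver, where 0 of 19 genes were called by limma (0 with an unadjusted p under 0.05), and 0% of all 11419 genes. The smallest p belonged to Tk1 (-0.42 ± 0.27), Mcm4 (-0.33 ± 0.21) and Rrm1 (-0.21 ± 0.17).

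Over the 8 comparisons 15 of the 45 genes were called at least once and 30 in none. The share of all genes called at least once is not given, so this count only sums up the calls above. Ccnd1 fell in 3, in liver of the Glp1r line under the conjugate and in both comparisons of Gipr-line fat, and E2f1 fell in 3, all in liver. Cdk1, Prc1, Tpx2, Anln, Birc5 and Stmn1 fell in both Gipr-line fat comparisons, and Ccne1 in 2 fat comparisons. Tk1 was the gene that rose, in 2 liver comparisons, while in Gipr-line fat without rich libraries it fell. In the GENCODE vM21 annotation 11 of the 45 genes share exon bases with a coding gene on the opposite strand, among them Prc1, Ube2c, Kif20a, Ccnd1 and Tk1, and 5 (Ccnb1, Ccnb2, Pcna, Stmn1 and Tyms) have a copy symbol in the tables, so their values could hold or lose reads of those genes.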

How the data were processed

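Polyadenylated RNA of liver and inguinal white adipose tissue was read as stranded libraries, per the labels' protocols, which name 2 ways of RNA precipitation without saying which library had which. Expression was estimated with RSEM, per the submitters' processing notes, and the authors deposited FPKM values in 4 tables, 1 per tissue and line, of 15 libraries each. No source used here names the aligner, genome build, annotation or strand setting. FPKM hold no counts, so depth was estimated from the smallest steps between the values of low genes.

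Within each table log2(FPKM + 1) was fitted over the 3 groups with limma 3.58.1 (R 4.3.3, trended eBayes). Genes with at least 1 FPKM in at least 5 of 15 libraries were tested. The p-values were adjusted by Benjamini-Hochberg over all genes tested, and an adjusted p under 0.05 was a call. The difference of the conjugate effect between lines was fitted over the 30 libraries of a tissue. Fold changes on this scale understate changes of low genes. The procedure was tested on simulated data.

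The 45 genes, the pathway lists and the marker lists (B, germinal centre B and T cells, macrophages, lipid-associated macrophages, adipocytes, hepatocytes, fibroblasts, endothelial, epithelial, erythroid and pancreatic acinar cells) were chosen with earlier results of these data known. Values in every library are given for Mki67, Top2a, Cdk1, Ccnb1, Ccnd1, Mcm2, Mcm6, Pcna and Rrm2 and for called genes, up to 6 by smallest p. Where no gene was called the 3 with the smallest p are named, and from each pathway list up to 4 called genes by fold change. Other genes were named after their values were seen. Alternatives changed the pseudocount, filter, scaling, groups fitted and libraries, and added a replicate block, a B cell score or the depth. Figures were drawn with matplotlib 3.10.9.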

Additional observations from a re-analysis of the deposited data

Results flagged for a closer look

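Dixon's test was run on 9 genes in each of the 12 groups of 5 libraries, and 27 of 108 gene and group pairs had a library apart from the other 4. Chance gives about 1 in 20 for normally distributed values. The test used FPKM without a log scale, and the 9 genes were read in the same libraries. The pairs are thus not independent, and their number cannot be set against that rate. All 27 were the highest of their group, and 7 libraries account for them.

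In fat, vehicle library 2 of the Glp1r line, the library with the highest B cell score, stood apart for Mki67 (7.80 FPKM), Top2a (9.26), Ccnb1 (3.85), Mcm2 (10.9), Mcm6 (17.2), Pcna (49.9) and Rrm2 (10.4). Conjugate library 5 of that line, rich in macrophage markers, did so for Mki67 (3.85 FPKM), Top2a (5.61), Ccnb1 (3.15), Mcm2 (4.50), Mcm6 (12.8) and Pcna (64.3). Vehicle library 2 of the Gipr line stood apart for Top2a (6.43 FPKM).

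In liver, knockout library 5 of the Gipr line stood apart for 8 genes, namely Mki67 (1.86 FPKM), Top2a (2.59), Cdk1 (2.77), Ccnb1 (1.04), Ccnd1 (16.01), Mcm2 (2.39), Mcm6 (4.68) and Rrm2 (3.39). Its vehicle library 3 did so for Mki67 (0.83 FPKM), Top2a (1.299) and Rrm2 (4.02), and its conjugate library 3 for Mcm6 (2.45 FPKM). Knockout library 1 of the Glp1r line stood apart for Rrm2 (4.998 FPKM). The part of these libraries in the calls is given by the fits without them.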

How the results depend on the processing

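No called gene changed direction in any alternative run. Of 528 alternative values for 27 gene results, 410 kept their side of the threshold and 118 fell short of it. Cdk1 and Prc1 in both Gipr-line fat comparisons, Ccnd1 in that knockout and E2f1 in Gipr-line liver under the conjugate were called in each of 20 alternatives. In at least as many alternatives as kept them, calls were lost for Anln (15 of 20), Aurka (13 of 20) and Ube2c (11 of 20) in Gipr-line fat under the conjugate, Ccne1 (13 of 20) and Birc5 (10 of 20) in its knockout, E2f1 in the Gipr knockout liver (13 of 19) and Ccnd1 in Glp1r-line liver under the conjugate (10 of 18). The numbers of genes called moved as follows, and a count without a share over all genes shows only this movement. In Glp1r-line liver under the conjugate (4 called) the depth term gave 0. In Gipr-line liver under the conjugate (1 called) median-of-ratios scaling gave 2. In the Gipr knockout liver (2 called) no filter, median-of-ratios scaling, leaving out the higher library numbers, a pseudocount of 0.1 with no filter, and the depth term each gave 1. In Glp1r-line fat under the conjugate (1 called) the pair of groups alone gave 0, leaving out lymph node-rich libraries 2, the B cell term 2, and leaving out conjugate library 5 as well 19. In Gipr-line fat under the conjugate (11 called) median-of-ratios scaling gave 19, the pair of groups alone 23, leaving out lymph node-rich libraries 26 and the B cell term 21. In the Gipr knockout fat (8 called) no filter gave 5, median-of-ratios scaling 14, leaving out lymph node-rich libraries 28, the B cell term 5, leaving out the higher library numbers 18, and a pseudocount of 0.1 with no filter 5. The cause of these moves was not tested.

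Leaving out 1 library at a time gave 3 to 5 calls in Glp1r-line liver under the conjugate, 1 to 4 in Gipr-line liver under the conjugate and 1 to 10 in its knockout. In fat it gave 1 to 4, 2 to 16 and 5 to 18 for the Glp1r conjugate, the Gipr conjugate and the Gipr knockout, and 0 in both Glp1r knockout comparisons.

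Replicate numbers are shared between groups but no label ties them to a litter or day. Correlations of same-numbered deviations ran from -0.84 to 0.57, and in each comparison 1 to 3 of 5 libraries matched best with their own number. With the number as a replicate block, calls went from 4 to 6, 0 to 0, 1 to 1 and 2 to 2 in the liver comparisons, from 1 to 0, 0 to 0, 11 to 10 and 8 to 7 in fat, and were 0 for both differences between lines.

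Median-of-ratios scaling moved the share of all called genes that were higher from 27.0% to 37.5% and from 13.9% to 39.4% in Gipr-line liver under the conjugate and in the knockout, from 68.1% to 52.5% in Glp1r-line fat under the conjugate, and from 60.6% to 33.6% and from 53.8% to 34.7% in Gipr-line fat. It moved the median change of all genes from -0.11 to 0.01 in the Gipr knockout liver. FPKM hold no counts, so the counting error of low genes could not be given, and genes under the filter were not tested.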
